A study of Homo sapiens with 24 samples.

Results

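Expression of 7 neuroendocrine genes was followed in VCaP and LNCaP, androgen-responsive human prostate cancer cell lines. The genes were INSM1, DDC, CHGA, CHGB, SYP, ENO2 and SCG2, chosen by name as markers or regulators of neuroendocrine cells out of 19777 genes on the array. The choice was made with earlier results of these data known. To these genes 9 probe sets (groups of short DNA probes for one transcript) were annotated. VCaP carries a TMPRSS2-ERG fusion and LNCaP a rearranged ETV1, so each line expresses an altered ETS-family transcription factor. The 4 VCaP groups were siERG with DHT, siControl with DHT, siERG with EtOH and siControl with EtOH, where siERG is small interfering RNA against ERG. The 4 LNCaP groups were shETV1 with DHT, shControl with DHT, shETV1 with EtOH and shControl with EtOH, where shETV1 is a short hairpin RNA against ETV1 and the labels call its control both shControl and siControl. All groups shared 24 h of RNA interference and 2 days in hormone-depleted medium before 16 h with 10 nM dihydrotestosterone (DHT, a natural androgen) or ethanol (EtOH, the vehicle). Each group held 3 arrays, replicates A, B and C.

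Neuroendocrine cells store peptide hormones in dense-core granules, whose main soluble proteins are the chromogranins and secretogranins, and they share vesicle proteins and metabolic enzymes with neurons. Prostate epithelium holds few such cells, and prostate adenocarcinoma can acquire neuroendocrine features, most often after androgen withdrawal. Some marker genes of this state, DDC and ENO2 among them, are also expressed in cells of other types.

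ERG fell in siERG relative to siControl arrays (-1.09 ± 0.06 log2 units with DHT and -0.82 ± 0.06 with EtOH), and ETV1 fell in shETV1 relative to shControl arrays (-0.62 ± 0.07 and -0.61 ± 0.07). FKBP5, an androgen-induced gene, rose with DHT in control cells by 3.52 ± 0.07 log2 units in LNCaP and 1.90 ± 0.07 in VCaP, and KLK3, another such gene, by 2.47 ± 0.07 and 0.61 ± 0.06. Changes here are differences of log2(intensity + 16) with their standard error from limma. A gene was said to rise or fall when its Benjamini-Hochberg adjusted p over all genes tested in that line was below 0.05. Of the luminal epithelial markers, 4 of 6 were measured, and these 4 (KRT8, KRT18, HOXB13 and FOLH1) lay above the array median in every group. Their level moved with the conditions, and the counts are given with the RNA measures. Of the markers of fibroblasts, endothelium and leukocytes, 10 of 11 were measured, and 1 to 4 of them lay above the median in all 3 arrays of a group.

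The name "neuroendocrine" fitted the lines unequally. In VCaP, 6 of the 7 genes lay above the array median on all 12 arrays and SYP on 8 of 12. In LNCaP only DDC and ENO2 lay above the median, on all 12 arrays. INSM1, CHGA, CHGB, SYP and SCG2 lay below it on every LNCaP array, with intensities of 1 to 18.5 against array medians of 42.7 to 44.8. They were therefore tested in VCaP alone. No value of one line was set against a value of the other as a level, since the scaling of each line's arrays was not stated.

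**Figure D1:**
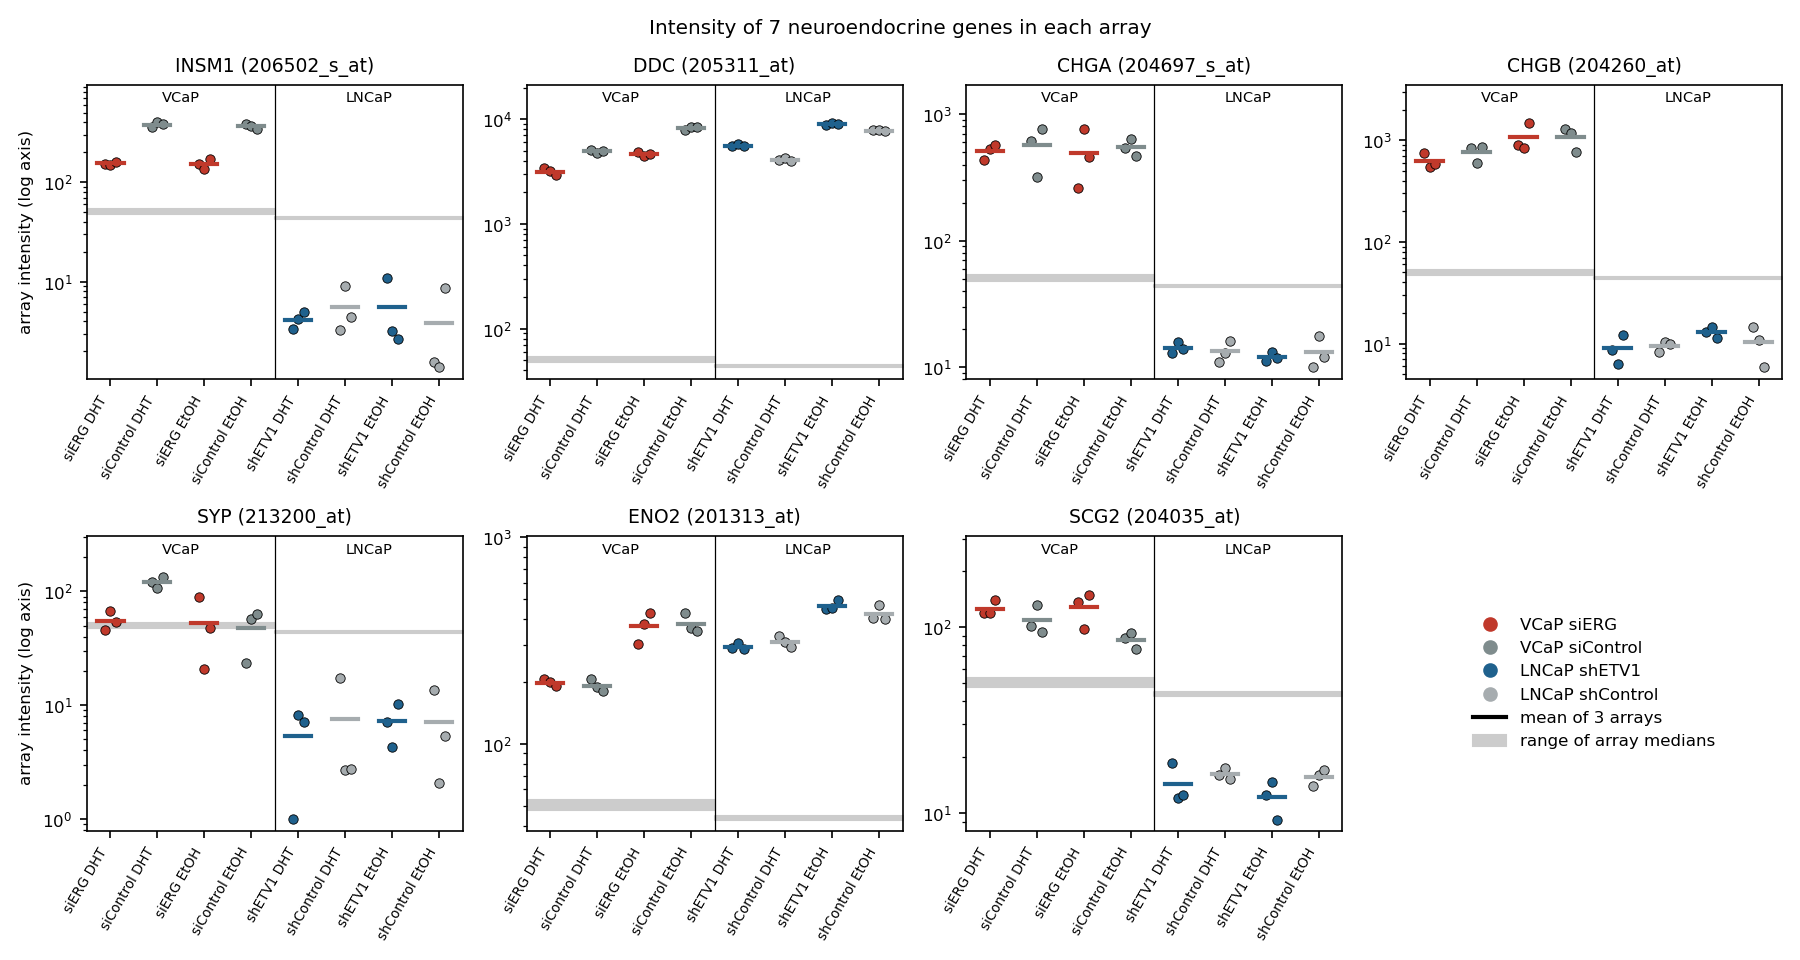
Intensity (log axis) of the 7 genes on each of 24 arrays, with 1 point per array, the group mean as a bar and the range of array medians of the line in grey. INSM1 and DDC were lower in siERG than in siControl VCaP arrays without overlap, and 5 of the 7 genes sat below the grey band on every LNCaP array.

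The promoters of DDC and ENO2 are shown because these are the genes that changed with DHT in both lines, and DDC also changed with each knockdown. The RefSeq windows (build GRCh38.p14) run from 250 bases before to 50 bases after a transcription start. Capitals mark GGAA, the core letters bound by ETS-family factors, or TTCC, the same core on the other strand. DDC has windows at 2 starts that lie 4334 bases apart.
DDC start 1, chr7:50565356-50565655, minus strand: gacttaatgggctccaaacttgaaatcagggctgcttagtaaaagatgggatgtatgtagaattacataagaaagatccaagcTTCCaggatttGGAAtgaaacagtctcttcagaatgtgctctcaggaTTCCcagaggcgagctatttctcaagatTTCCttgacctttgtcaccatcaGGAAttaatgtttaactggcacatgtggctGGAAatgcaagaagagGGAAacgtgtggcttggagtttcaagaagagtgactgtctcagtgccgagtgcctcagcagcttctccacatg
DDC start 2, chr7:50561022-50561321, minus strand: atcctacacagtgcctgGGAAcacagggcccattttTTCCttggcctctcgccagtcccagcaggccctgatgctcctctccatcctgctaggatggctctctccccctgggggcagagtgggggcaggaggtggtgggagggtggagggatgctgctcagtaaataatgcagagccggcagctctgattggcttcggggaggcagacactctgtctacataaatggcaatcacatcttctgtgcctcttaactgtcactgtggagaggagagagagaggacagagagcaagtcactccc
ENO2, chr12:6914330-6914629, plus strand: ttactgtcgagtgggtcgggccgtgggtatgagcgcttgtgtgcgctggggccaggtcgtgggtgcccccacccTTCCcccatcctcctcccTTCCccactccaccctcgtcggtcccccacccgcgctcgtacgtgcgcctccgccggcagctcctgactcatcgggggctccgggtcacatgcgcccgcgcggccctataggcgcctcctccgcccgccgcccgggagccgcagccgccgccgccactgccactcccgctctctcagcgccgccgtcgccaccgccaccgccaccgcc
The first DDC window held 7 matches, the second DDC window 2 and the ENO2 window 2. A match is common by itself, as 95.5% of 35116 such windows held at least 1, with a median of 3. The longer ETS site CCGGAAG or its reverse CTTCCGG (in 10.3% of windows) and the androgen receptor half-site AGAACA or its reverse TGTTCT (in 14.8%) had 0 matches in these 3 windows. Windows were given for 4 of the 7 genes, the others being CHGA and SYP.

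INSM1, a zinc-finger transcription factor of neuroendocrine differentiation, fell with ERG knockdown in VCaP and not with DHT. With DHT, its intensity on arrays A, B and C was 152, 150.3 and 161 in siERG cells, against 358, 400.1 and 379 in siControl cells. With EtOH it was 151, 135.5 and 172 in siERG cells, against 382, 369 and 341 in siControl cells. All 6 siERG arrays thus lay below all 6 siControl arrays. The group mean fell by 59.2% with DHT (155 ± 5.81 in siERG, 379 ± 21.2 in siControl, SD, n = 3) and fell by 58.1% with EtOH (153 ± 18.2 in siERG, 364 ± 20.8 in siControl). On the log2 scale the changes were -1.21 ± 0.08 with DHT (adjusted p = 7.55e-06) and -1.18 ± 0.08 with EtOH (adjusted p = 1.35e-05). The DHT response of INSM1 was 0.02 ± 0.08 in siERG cells (adjusted p = 0.853) and 0.05 ± 0.08 in siControl cells (adjusted p = 0.601), with 95% intervals of -0.15 to 0.19 and -0.12 to 0.23. A second INSM1 probe set, 231558_at, was above the median on 0 of 12 VCaP arrays, with group means of 15.4 in siERG and 30.5 in siControl cells with DHT, and 19.3 in siERG and 30.6 in siControl cells with EtOH. Its groups overlapped, so the INSM1 result rests on the one probe set, 206502_s_at.

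DDC, which makes dopamine and serotonin from their amino acid precursors and is also known to bind the androgen receptor, was among the brightest genes in both lines. Its probe set 205311_at lay at or above the 97.1 percentile of every VCaP array and the 97.9 percentile of every LNCaP array. In VCaP with DHT the intensities were 3395, 3166 and 2909 in siERG cells, against 5123, 4721 and 4919.9 in siControl cells. In VCaP with EtOH they were 4835, 4436 and 4599 in siERG cells, against 7829.9, 8496 and 8375 in siControl cells. DDC fell with ERG knockdown without overlap under both treatments, by 0.64 ± 0.06 log2 units with DHT (adjusted p = 1.51e-04), and fell by 0.83 ± 0.06 with EtOH (adjusted p = 3.93e-05).

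DHT also lowered DDC in VCaP. The change was -0.55 ± 0.06 in siERG cells (adjusted p = 4.53e-05) and -0.74 ± 0.06 in siControl cells (adjusted p = 5.1e-06). The group means were 3157 ± 243 in siERG cells with DHT, 4921 ± 201 in siControl cells with DHT, 4623 ± 201 in siERG cells with EtOH and 8234 ± 355 in siControl cells with EtOH (SD, n = 3 each). Ordered by mean, neighbouring groups did not overlap except siControl with DHT and siERG with EtOH. ERG knockdown alone and DHT alone thus gave overlapping DDC intensities, and the group with both had the lowest. The interaction, the DHT response of siERG cells minus that of siControl cells, was 0.19 ± 0.09 with an adjusted p of 0.480.

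In LNCaP, DDC rose with ETV1 knockdown and fell with DHT. With DHT the intensities were 5478, 5781 and 5498 in shETV1 cells, against 4069, 4253 and 3950.4 in shControl cells. With EtOH they were 8737, 9097 and 9015 in shETV1 cells, against 7805, 7787 and 7717 in shControl cells. None of these 4 groups overlapped. The change with shETV1 was 0.45 ± 0.04 with DHT (adjusted p = 1.37e-04) and 0.20 ± 0.04 with EtOH (adjusted p = 0.0203). The smaller of these, with EtOH, lost its call without shControl EtOH replicate A or C or shETV1 EtOH replicate B or C, with changes of 0.19 to 0.21 and adjusted p from 0.0608 to 0.0781. The DHT change was -0.68 ± 0.04 in shETV1 cells (adjusted p = 2.51e-07) and -0.92 ± 0.04 in shControl cells (adjusted p = 1.79e-08).

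With this probe set the DDC change thus ran in opposite directions with the 2 knockdowns. The effect of shETV1 in LNCaP minus that of siERG in VCaP was 1.09 ± 0.07 with DHT (adjusted p = 3.03e-08) and 1.03 ± 0.07 with EtOH (adjusted p = 4.89e-08), contrasts that were added after the values were seen. The rise in LNCaP was not called once the probe sets of DDC were averaged (0.10 ± 0.09 with DHT, adjusted p = 0.601, and -0.040 ± 0.09 with EtOH, adjusted p = 0.881). With the GAPDH ratio in the fit, the change of DDC under EtOH also did not pass (0.23 ± 0.06, adjusted p = 0.113), while that under DHT did. The DDC response to DHT in LNCaP shControl minus that in VCaP siControl cells was -0.18 ± 0.07 (adjusted p = 0.0679). This difference passed the threshold without VCaP siControl DHT replicate B (-0.21, adjusted p = 0.0479), siERG DHT replicate A (-0.18, adjusted p = 0.0439) or siERG DHT replicate C (-0.18, adjusted p = 0.0337). The second DDC probe set, 214347_s_at, never passed the array median, with intensities of 7.91 to 31.4 over the 24 arrays.

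CHGA and CHGB encode chromogranins A and B, which pack hormones into dense-core granules, and SCG2 encodes secretogranin II, another granule protein. CHGA did not pass the test in any comparison, and its replicates were far apart. With DHT it had intensities of 431, 529 and 568 in siERG cells, against 617, 318 and 768 in siControl cells. With EtOH it had 262, 759.95 and 455 in siERG cells, against 545, 632 and 463 in siControl cells. The groups overlapped in each comparison, and the siERG change was -0.07 ± 0.37 with DHT (95% interval -0.89 to 0.74) and -0.26 ± 0.37 with EtOH (-1.07 to 0.55).

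CHGB had, with DHT, 739.8, 544 and 581 in siERG cells, against 831, 596 and 857 in siControl cells. With EtOH it had 902, 837 and 1486 in siERG cells, against 1275, 1177 and 772 in siControl cells. In siERG cells the DHT and EtOH arrays did not overlap, and the DHT change of -0.74 ± 0.25 passed the test (adjusted p = 0.0319). In siControl cells they overlapped, with a change of -0.47 ± 0.25 (adjusted p = 0.149). The difference between these responses was -0.27 ± 0.35 (adjusted p = 0.835). The call in siERG cells was lost without siERG EtOH replicate C (-0.49, adjusted p = 0.118), siERG DHT replicate B (-0.65, adjusted p = 0.0975) or siERG DHT replicate C (-0.70, adjusted p = 0.0806). In siControl cells the change passed without siControl EtOH replicate C (-0.69, adjusted p = 0.0478).

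SCG2 did not pass the test in any comparison, with higher mean intensities in siERG than in siControl cells. With DHT it had 120.1, 119 and 139.8 in siERG cells, against 101, 132 and 94.7 in siControl cells. With EtOH it had 136, 98.5 and 149.7 in siERG cells, against 87.6, 93.65 and 76 in siControl cells. The EtOH groups did not overlap and differed by 0.49 ± 0.15 (adjusted p = 0.0556), while the DHT groups overlapped (0.19 ± 0.15, adjusted p = 0.479). The EtOH difference passed the threshold without siERG EtOH replicate B (0.65, adjusted p = 0.0173) or without siControl DHT replicate B (0.49, adjusted p = 0.0431), which enters only through the common spread.

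SYP encodes synaptophysin, a membrane protein of small vesicles, and its signal lay close to the array median. With DHT its intensities were 45.4, 67.5 and 53.3 in siERG cells, against 121, 106 and 134 in siControl cells. With EtOH they were 88.4, 20.7 and 47.5 in siERG cells, against 23.5, 56.75 and 63.3 in siControl cells. The 3 siControl arrays with DHT were the highest of the 12. In siControl cells the DHT change was 1.15 ± 0.35 (adjusted p = 0.0196), and it lost the call without siControl EtOH replicate A (0.84, adjusted p = 0.0767) or siControl DHT replicate C (1.08, adjusted p = 0.0588). In siERG cells it was 0.18 ± 0.35 (adjusted p = 0.706), and the interaction of -0.97 ± 0.49 did not pass (adjusted p = 0.513). With DHT, siERG arrays lay below siControl arrays without overlap, with a difference of -0.94 ± 0.35 that did not pass (adjusted p = 0.130).

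ENO2 encodes the neuronal form of the glycolytic enzyme enolase. In VCaP with DHT its intensities were 205, 199 and 189.6 in siERG cells, against 205, 189 and 179 in siControl cells. In VCaP with EtOH they were 305, 380.1 and 432 in siERG cells, against 428, 363 and 353 in siControl cells. The DHT change was -0.85 ± 0.11 in siERG cells (adjusted p = 1.24e-04) and -0.94 ± 0.11 in siControl cells (adjusted p = 6.14e-05), with no overlap between the treatments. The siERG and siControl arrays overlapped under both treatments.

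In LNCaP with DHT, ENO2 had intensities of 291, 307 and 288 in shETV1 cells, against 332, 311 and 293 in shControl cells. With EtOH it had 448, 453 and 499 in shETV1 cells, against 406, 468 and 404 in shControl cells. The DHT change was -0.63 ± 0.07 in shETV1 cells (adjusted p = 3.00e-05) and -0.43 ± 0.07 in shControl cells (adjusted p = 4.95e-04), again with no overlap. The response of LNCaP shControl cells minus that of VCaP siControl cells was 0.51 ± 0.14 (adjusted p = 0.00699, 95% interval 0.22 to 0.80), so among control cells the fall was smaller in LNCaP. ENO2 was 1 of 2 genes tested for this difference that passed, where 31.9% of all genes tested did and 17.6% in the same direction. The same difference between shETV1 cells (-0.63 ± 0.07) and siERG cells (-0.85 ± 0.11) was not tested.

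**Figure D2:**
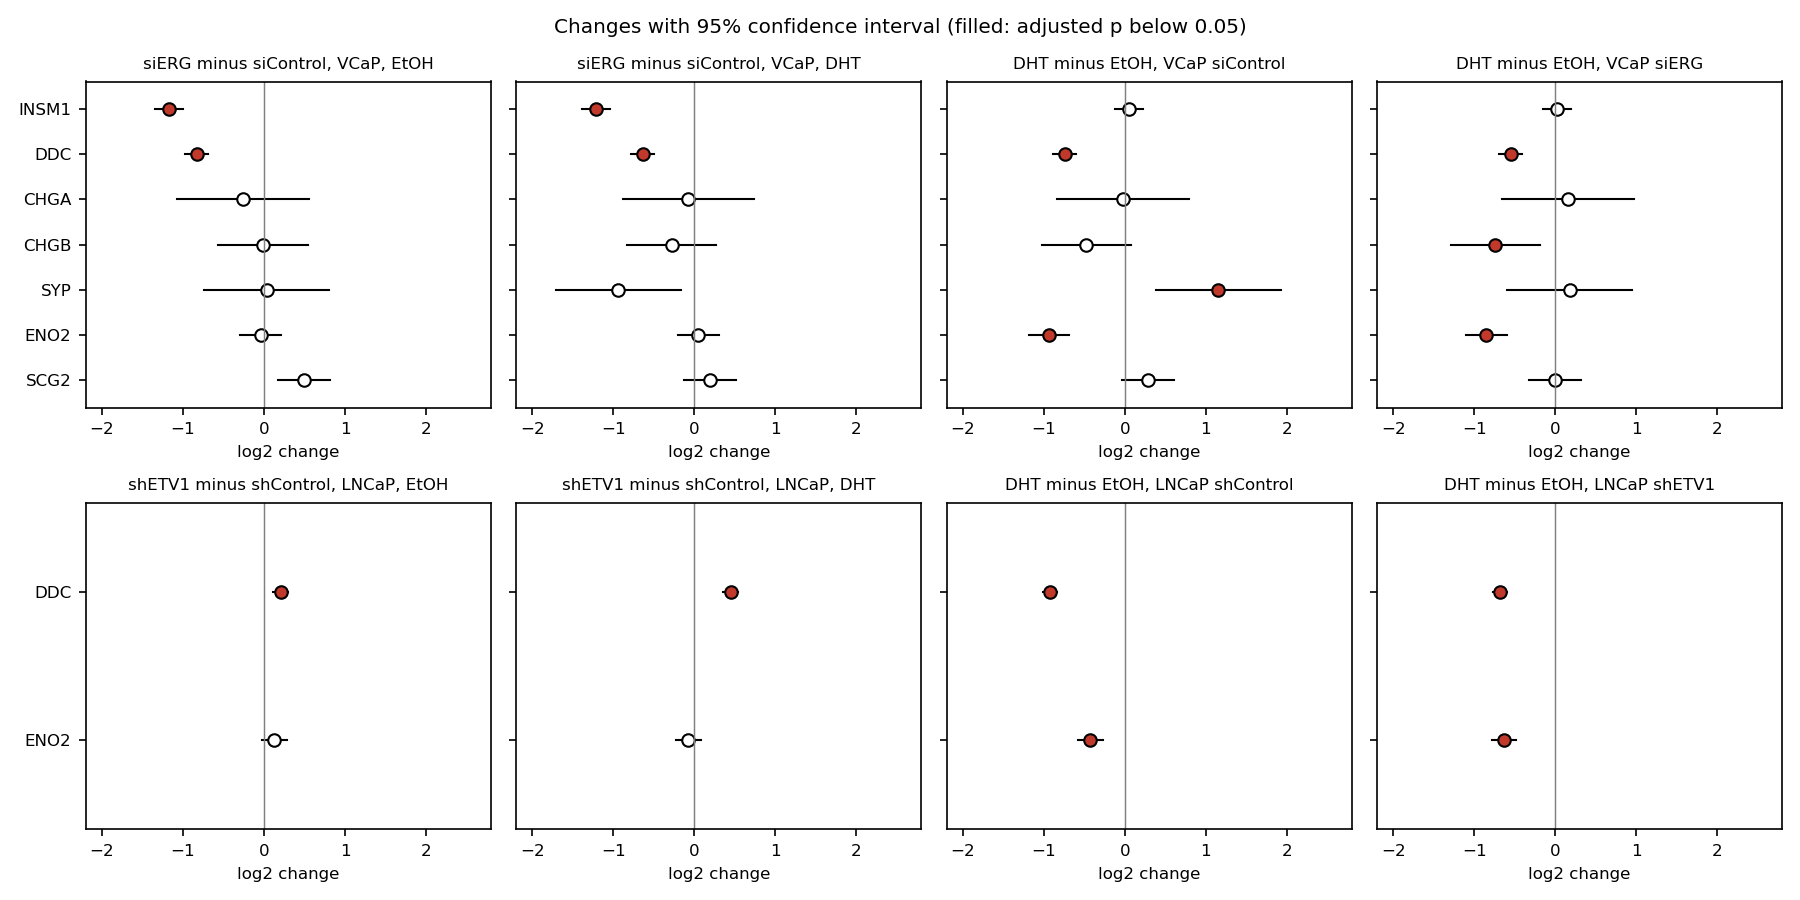
Change of each gene (log2 units, horizontal axis) with its 95% confidence interval in the 8 comparisons of 2 groups, 3 arrays each, with filled points for an adjusted p below 0.05. INSM1 and DDC stood to the left of 0 with siERG under both treatments, and DDC stood to the right of 0 with shETV1 and to the left with DHT in both lines.

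Counted together, 2 of 7 genes changed with siERG under EtOH, where 11.3% of all genes tested changed, and 2 of 7 under DHT, where 9.05% did. In each case these were INSM1 and DDC and both fell, while 5.92% of all genes fell with EtOH and 5.24% with DHT. With DHT, 3 of 7 genes changed in siERG cells, where 45.4% of all genes did, and DDC, ENO2 and CHGB fell, where 25.3% of all genes fell. In siControl cells 3 of 7 changed, where 45.2% of all genes did, with SYP rising (19.6% of all genes rose) and DDC and ENO2 falling (25.5% fell). These shares with DHT are near the background. Since the 7 genes were chosen with earlier results of these data known, no count here tests the set against all genes. The interaction passed for 0 of 7 genes by limma, also at an unadjusted p below 0.05, where 0.35% of all genes passed after adjustment. In LNCaP, 1 of the 2 genes tested rose with shETV1 under EtOH and 1 under DHT, DDC both times, where 4.2% and 5.18% of all genes changed and 1.23% and 2.68% rose. Both genes fell with DHT in shETV1 cells (37.9% of all genes changed and 19% fell) and in shControl cells (40.9% changed and 22.3% fell). The LNCaP interaction passed for 0 of 2 genes by limma, 1 of which (DDC, 0.24 ± 0.06, adjusted p = 0.221) had an unadjusted p below 0.05, where 0.101% of all genes passed after adjustment.

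RNA measures moved along with some of these groups. The ratio of 3′ to 5′ GAPDH signal, a sign of RNA integrity, averaged 1.03 in siERG cells with DHT, 1.07 in siControl cells with DHT, 1.09 in siERG cells with EtOH and 1.05 in siControl cells with EtOH. Each of these pairs that differ in 1 factor was fully separated (exact permutation p = 0.1, two-sided, the smallest that 3 against 3 arrays allow). So was the pair of LNCaP shETV1 with DHT (1.08) and shControl with DHT (1.09), by the same exact test (p = 0.1). The ACTB ratio averaged 2.84 in siERG with DHT and 3.499 in siControl with DHT, also separated (exact permutation p = 0.1), and no other pair of either ratio was. With the GAPDH ratio in the limma fit, the DHT change in siERG cells did not pass for ENO2 or CHGB. It was -0.56 ± 0.22 for ENO2 (adjusted p = 0.109) and -0.23 ± 0.51 for CHGB (adjusted p = 0.802). DDC still fell in that comparison, and INSM1 and DDC still fell with siERG under both treatments. The summed intensity of the 10 markers of other cell types was 712 to 769 in siERG with DHT, 866 to 1067 in siControl with DHT, 949.65 to 1033 in siERG with EtOH and 1075 to 1158 in siControl with EtOH. Of these markers 6 were tested in VCaP. With siERG, 1 rose and 1 fell under DHT, where 9.05% of all genes changed, and 1 rose and 2 fell under EtOH, where 11.3% did. LYZ, a leukocyte gene, fell under both (-1.03 ± 0.14 with DHT and -1.22 ± 0.14 with EtOH), and the one that rose was LUM, a fibroblast gene, under both. With DHT, 2 rose and 1 fell in siERG cells, where 45.4% of all genes changed. In siControl cells 0 rose and 2 fell, where 45.2% changed. PECAM1, counted as fallen with siERG under EtOH and risen with DHT in siERG cells, was above the median on 0 of 3 siERG EtOH arrays. It was above it on 2 of 3 arrays of siControl with EtOH and of siERG with DHT. VWF, counted as fallen with DHT in VCaP siControl and LNCaP shControl cells, was above it there on 1 of 3 DHT and 3 of 3 EtOH arrays. LUM was above the median on 0 of 6 arrays with DHT (means of 37.3 in siERG and 29.4 in siControl cells) and on 6 of 6 with EtOH (means of 324 in siERG and 232 in siControl cells), so it was tested through its EtOH arrays. In LNCaP the sum was 500 to 578 in shETV1 with DHT, 557 to 603 in shControl with DHT, 791 to 832 in shETV1 with EtOH and 731 to 796 in shControl with EtOH. There 1 of 6 such markers rose with shETV1 under EtOH, and 0 changed under DHT by limma (0 also at an unadjusted p below 0.05). Over all genes, 4.2% changed under EtOH and 5.18% under DHT. With DHT, 2 markers fell and 0 rose in shETV1 and in shControl cells, where 37.9% and 40.9% of all genes changed.

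The luminal markers moved as well. Their summed intensity was 13797 to 15698 in siERG with DHT, 15113 to 16754 in siControl with DHT, 10277 to 10516 in siERG with EtOH and 12557 to 13048 in siControl with EtOH. With siERG, 3 of the 4 fell under EtOH (KRT8, KRT18 and HOXB13) and 0 changed under DHT by limma (1 at an unadjusted p below 0.05). Over all genes, 5.92% fell with siERG under EtOH and 9.05% changed under DHT. With DHT, KRT8 and KRT18 rose and FOLH1 fell in siERG and in siControl cells, where 45.4% and 45.2% of all genes changed. In LNCaP the sum was 16376 to 17369 in shETV1 with DHT, 19016 to 19679 in shControl with DHT, 12113 to 12393 in shETV1 with EtOH and 11956 to 13178 in shControl with EtOH. With shETV1, KRT8 fell under DHT (-0.33 ± 0.05, adjusted p = 0.00351) and 0 of the 4 changed under EtOH by limma, also at an unadjusted p below 0.05, and with DHT 2 rose and 2 fell in both shETV1 and shControl cells. The part of the marker genes of either kind in the results was not tested. Each culture was of a single cell line. In its bulk RNA, fewer cells expressing a gene and less of its RNA per cell cannot be told apart.

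The genes differed in how far replicate arrays lay apart. In VCaP the standard deviation within a group was 0.10 log2 units for INSM1, 0.08 for DDC, 0.15 for ENO2 and 0.20 for SCG2, where the median over all genes tested was 0.09. It was 0.51 for CHGA, 0.34 for CHGB and 0.48 for SYP. Among genes with a mean within 0.5 log2 units of their own, 99.7% of 2339 had a smaller spread than CHGA, 99.6% of 2325 a smaller spread than CHGB and 96.9% of 2267 a smaller spread than SYP. The arrays that stood out differed by gene. CHGA was lowest on siERG EtOH replicate A, CHGB was highest on siERG EtOH replicate C, and SYP was lowest on siERG EtOH replicate B. In LNCaP the spread was 0.04 for DDC and 0.09 for ENO2. Among genes of like level, 49.4% of 401 had a smaller spread than DDC and 58.1% of 2207 a smaller spread than ENO2, so neither stood apart.

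**Figure D3:**
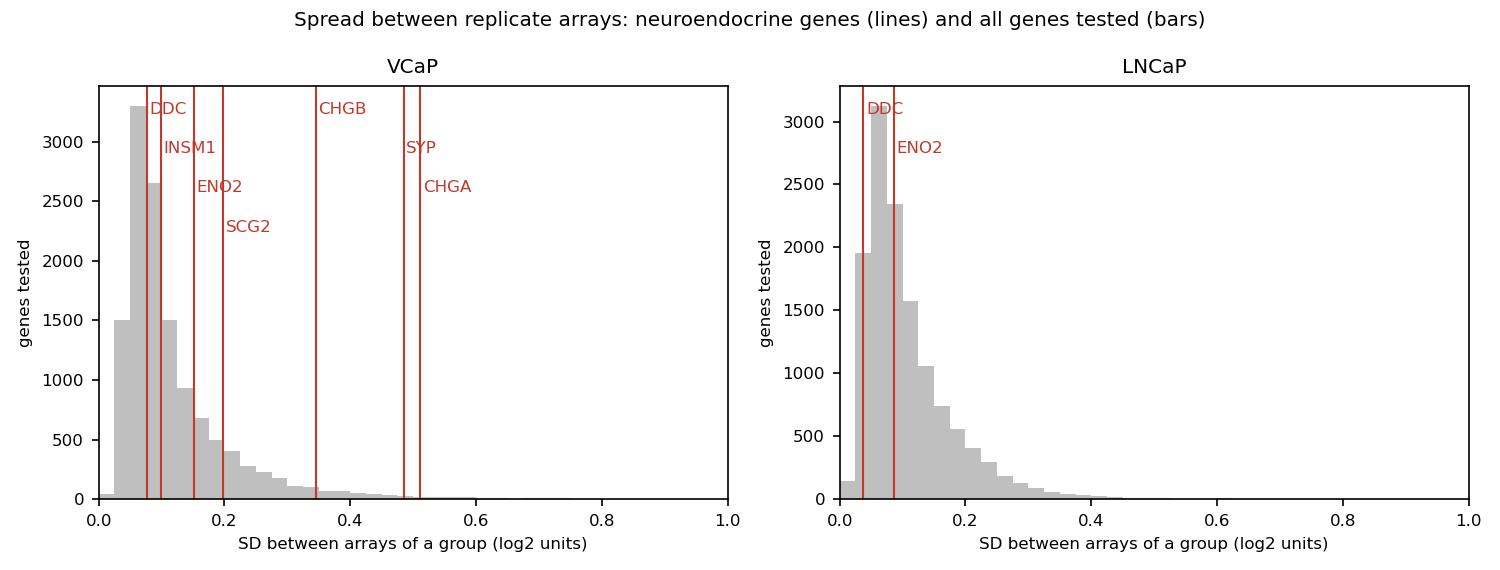
Histograms of the standard deviation between arrays of a group (log2 units, horizontal axis) over all genes tested in each line, with red lines for the neuroendocrine genes. In VCaP, CHGB, SYP and CHGA lie in the far right tail of all genes, also against genes of like level. In LNCaP, DDC lies left of ENO2, and each has a spread near the middle of genes of like level.

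The genes whose profile over the 12 arrays of a line was most like that of a neuroendocrine gene were ranked by the root mean square difference of centred log2 values. Only genes whose group means spanned at least 0.5 log2 units were used, which left out CHGA and SCG2. For INSM1 they were CA4 (0.15), GDA (0.16) and PGCKA1 (0.16), and for DDC in VCaP they were MYO1E (0.10), ARHGDIB (0.10) and AGTR1 (0.11). ENO2 in VCaP was followed most closely by ANTXR1 (0.10), SCAI (0.11) and TMT1A (0.12), and CHGB by GRIP2 (0.20), ASIC1 (0.22) and MMP11 (0.22). SYP had no close follower, its nearest genes CDO1, LINC00963 and TESC being 0.40, 0.41 and 0.41 away. In LNCaP, DDC was followed by ATP11A (0.06), PLA2G2A (0.07) and NUP93 (0.07), and ENO2 by DNAJC12 (0.04), CLU (0.05) and KIAA1217 (0.06). No gene was among the nearest of DDC, or of ENO2, in both lines.

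Other genes of the same roles were read from 6 lists holding 81 genes, of which 74 were measured. Their counts are to be read beside the shares of all genes given above for the same comparisons. A gene was tested once enough arrays of a line lay above the median, so some passed through the arrays of one side alone and had to differ. Such genes (PAM, PTPRN2, UCHL1 and ADM in LNCaP, and NTS, PROX1 and NEFM in VCaP) are in the counts, and their values are given as a description. Among transcription regulators of the neuroendocrine state, 10 of 20 were tested in VCaP. With siERG, 1 rose and 1 fell under DHT, and 1 rose and 0 fell under EtOH. PEG10, a retrotransposon-derived gene raised in neuroendocrine prostate cancer, rose under both treatments (0.37 ± 0.05 with DHT, adjusted p = 0.00187, and 0.26 ± 0.05 with EtOH, adjusted p = 0.011). NKX2-2, a homeobox factor of endocrine cells, fell under DHT (-0.61 ± 0.09, adjusted p = 0.00267). REST, the repressor of neuronal genes in non-neuronal cells, did not pass with siERG (-0.09 ± 0.08 with DHT and 0.07 ± 0.08 with EtOH). The median change of the list was 0.06 with DHT and 0.13 with EtOH, beside 0.02 and 0.01 over all genes.

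DHT in VCaP lowered 6 and raised 1 of these 10 regulators in siERG cells, where 45.4% of all genes changed and 25.3% fell. It lowered 5 and raised 1 in siControl cells, where 45.2% of all genes changed and 25.5% fell. Of the 6 that fell in siERG cells, PROX1 lay above the median on 0 of 3 siERG arrays with DHT and 2 of 3 with EtOH. The list medians were -0.35 in siERG and -0.22 in siControl cells, beside -0.03 over all genes in each case. DLL3, a Notch ligand found on neuroendocrine tumour cells, fell in siERG cells (-0.71 ± 0.12, adjusted p = 7.82e-04) and in siControl cells (-1.22 ± 0.12, adjusted p = 1.68e-05). REST fell in siERG cells (-0.32 ± 0.08, adjusted p = 0.00563) and did not pass in siControl cells (-0.16 ± 0.08, adjusted p = 0.114). The difference between these REST responses was -0.16 ± 0.11 and did not pass (adjusted p = 0.643).

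In LNCaP, 8 of the 20 regulators were tested, and 1 rose and 0 fell with shETV1 under each treatment. DHT raised 1 and lowered 1 of them in shETV1 cells and in shControl cells alike. HES6, a Notch pathway factor that favours neuronal differentiation, rose (0.53 ± 0.05 in shETV1 and 0.48 ± 0.05 in shControl cells), and MYT1, a neuronal zinc-finger factor, fell (-0.36 ± 0.07 and -0.49 ± 0.07). In VCaP siControl cells HES6 fell (-0.44 ± 0.14), and its DHT response in LNCaP shControl minus that in VCaP siControl was 0.92 ± 0.15 (adjusted p = 1.19e-04). DLL3 rose with shETV1 (0.23 ± 0.04 with DHT and 0.20 ± 0.04 with EtOH), and its line difference in DHT response was 1.29 ± 0.13 (adjusted p = 3.51e-07).

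Of the genes for granule proteins and prohormone processing, 8 of 12 were tested in VCaP. With siERG, 0 rose and 1 fell under DHT, and 1 rose and 1 fell under EtOH. SCGN, a calcium sensor of endocrine cells, was the one that fell (-0.67 ± 0.08 with DHT, adjusted p = 5.79e-04, and -0.64 ± 0.08 with EtOH, adjusted p = 9.14e-04). Its mean intensity was 799 ± 92.5 in siERG and 1275 ± 40.9 in siControl cells with DHT, and 988 ± 59.2 in siERG and 1547 ± 93.5 in siControl cells with EtOH (SD, n = 3). CPE, which trims prohormones, rose with EtOH (0.45 ± 0.06, adjusted p = 0.00154). DHT lowered 2 of the 8 in siERG cells, and lowered 2 and raised 1 in siControl cells, with CADPS, a factor of granule release, falling in both (-0.57 ± 0.06 and -0.43 ± 0.06). The list medians were -0.05 with siERG under DHT and 0.04 under EtOH, and -0.08 with DHT in siERG and -0.01 in siControl cells.

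In LNCaP, 5 of the 12 granule genes were tested. With shETV1, 1 of them fell and 0 rose under each treatment. This was PAM, which amidates peptide hormones and lay above the median on 1 of 6 shETV1 and 6 of 6 shControl arrays. Its mean intensity was 24.2 in shETV1 and 52.9 in shControl cells with DHT, and 44.2 in shETV1 and 83.2 in shControl cells with EtOH. DHT raised 2 and lowered 1 of the 5 in both shETV1 and shControl cells, PAM being the 1 that fell. One of those that rose was PTPRN2, a granule membrane protein above the median on 6 of 6 DHT and 1 of 6 EtOH arrays, with means of 97.2 and 37.4 in shETV1 cells with DHT and EtOH and of 106 and 35.1 in shControl cells. The other was VGF, a granule peptide precursor above the median on all 12 arrays, which rose by 0.53 ± 0.14 in shETV1 and 0.77 ± 0.14 in shControl cells. The list medians were -0.11 with shETV1 under DHT and -0.05 under EtOH, and 0.21 with DHT in shETV1 and 0.12 in shControl cells, where the medians over all genes lay within 0.02 of 0.

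Among synaptic vesicle genes, 7 of 10 were tested in VCaP and 6 in LNCaP. With siERG, 0 of 7 changed under DHT by limma (1 at an unadjusted p below 0.05) and 1 rose under EtOH, with list medians near 0 under DHT and of 0.06 under EtOH. SYNGR1, which encodes synaptogyrin 1, a relative of synaptophysin, rose with siERG under EtOH (0.33 ± 0.06, adjusted p = 0.00572). It fell with DHT in siERG cells (-0.73 ± 0.06, adjusted p = 3.39e-06) and in siControl cells (-0.22 ± 0.06, adjusted p = 0.0106), where 2 of the 7 genes fell and 0 rose in each case. Of all list genes tested in VCaP, it was the only one whose interaction passed (-0.51 ± 0.08, adjusted p = 0.0451). This call of SYNGR1 was not stable. The interaction did not pass with the GAPDH ratio in the fit (-0.75 ± 0.15, adjusted p = 0.572), where 0 of all genes passed, with the ACTB ratio (adjusted p = 0.0848), with a replicate block (adjusted p = 0.105, 6 of all genes against 45), with arrays centred (0.107), with no filter (0.109), with its probe sets averaged (-0.27, adjusted p = 0.454) or without probe sets ending in _x_at or _s_at (-0.04, adjusted p = 0.973). It also did not pass when any of 10 of the 12 arrays was left out (adjusted p from 0.0864 to 0.119). In LNCaP it fell with DHT (-0.18 ± 0.04 in shETV1 and -0.16 ± 0.04 in shControl cells), and 0 of 6 genes changed with shETV1 by limma, with 1 at an unadjusted p below 0.05 under each treatment.

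Of the genes for monoamine synthesis and handling, which act beside DDC, 6 of 13 were tested in VCaP. TH, TPH1, TPH2, DBH, SLC18A1 and SLC18A2 were not, and lay above the median on 0 of 12 arrays in each line. GCH1, the first enzyme in the synthesis of tetrahydrobiopterin, a cofactor of monoamine synthesis, was the 1 gene that fell with siERG (-0.75 ± 0.08 with DHT, adjusted p = 1.54e-04, and -0.45 ± 0.08 with EtOH, adjusted p = 0.00400), and 0 rose. Its mean intensity was 1031 ± 106 in siERG and 1739.7 ± 88.3 in siControl cells with DHT, and 1174 ± 72.3 in siERG and 1606 ± 18.4 in siControl cells with EtOH. With DHT, 2 of the 6 fell and 0 rose in siERG cells, and 3 fell and 1 rose in siControl cells, with list medians of -0.14 and -0.15. MAOA, which breaks monoamines down, rose with DHT in LNCaP (0.47 ± 0.05 in shETV1 and 0.51 ± 0.05 in shControl cells). In VCaP it fell with DHT (-0.38 ± 0.06 in siERG and -0.45 ± 0.06 in siControl cells), and the LNCaP minus VCaP difference in control cells was 0.96 ± 0.08 (adjusted p = 8.43e-09). QDPR, which regenerates the same cofactor, also fell with DHT in VCaP (-0.37 ± 0.06 in siERG and -0.40 ± 0.06 in siControl cells). With shETV1, 0 of the 5 genes tested in LNCaP passed by limma, with 1 at an unadjusted p below 0.05 under each treatment.

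Of the neuronal enzymes and cytoskeletal genes, 7 of 12 were tested in each line. With siERG 1 fell and 0 rose under each treatment, and with shETV1 2 fell and 0 rose under each treatment. With DHT, 3 rose and 3 fell in siERG and in siControl cells, where 45.4% and 45.2% of all genes changed. In shETV1 and in shControl cells 1 rose and 1 fell, where 37.9% and 40.9% of all genes changed. Of the 3 that fell in siControl cells, NEFM lay above the median on 1 of 3 arrays with DHT and 3 of 3 with EtOH. NEFL, the light neurofilament chain, fell in all 8 comparisons of 2 groups. The change with siERG was -0.39 ± 0.07 under DHT and -0.42 ± 0.07 under EtOH, and the change with shETV1 was -0.64 ± 0.06 under DHT and -0.75 ± 0.06 under EtOH. The change with DHT was -1.83 ± 0.07 in siERG and -1.86 ± 0.07 in siControl cells, and -0.79 ± 0.06 in shETV1 and -0.90 ± 0.06 in shControl cells. ENO1, the ubiquitous enolase, rose with DHT in VCaP (0.52 ± 0.05 in siERG and 0.41 ± 0.05 in siControl cells), opposite to ENO2. UCHL1, a neuronal ubiquitin hydrolase and the gene that rose with DHT in LNCaP, lay above the median there on 6 of 6 DHT and 2 of 6 EtOH arrays. Its mean was 78.0 with DHT and 39.0 with EtOH in shETV1 cells, and 104 with DHT and 46.8 with EtOH in shControl cells. In VCaP, UCHL1 lay above the median on all 12 arrays (1523 to 2385) and fell with DHT in siERG and in siControl cells.

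Of the peptide hormones and receptors, 4 of 14 were tested in VCaP and 6 in LNCaP. NTS, the precursor of neurotensin, was above the median on 0 of 6 DHT and 6 of 6 EtOH arrays of VCaP. Its mean was 40.5 with DHT and 71.5 with EtOH in siERG cells, and 35.1 with DHT and 65.8 with EtOH in siControl cells. ADM, the precursor of adrenomedullin, was above the median on 0 of 6 DHT and 6 of 6 EtOH arrays of LNCaP. Its mean was 32.4 with DHT and 84.1 with EtOH in shETV1 cells, and 31.2 with DHT and 69.7 with EtOH in shControl cells. With siERG, 0 of 4 changed under EtOH by limma (2 at an unadjusted p below 0.05), and under DHT ADM rose (0.45 ± 0.09, adjusted p = 0.0129) and VIPR1, a receptor of vasoactive intestinal peptide, fell (-0.34 ± 0.09, adjusted p = 0.0450).

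**Figure D4:**
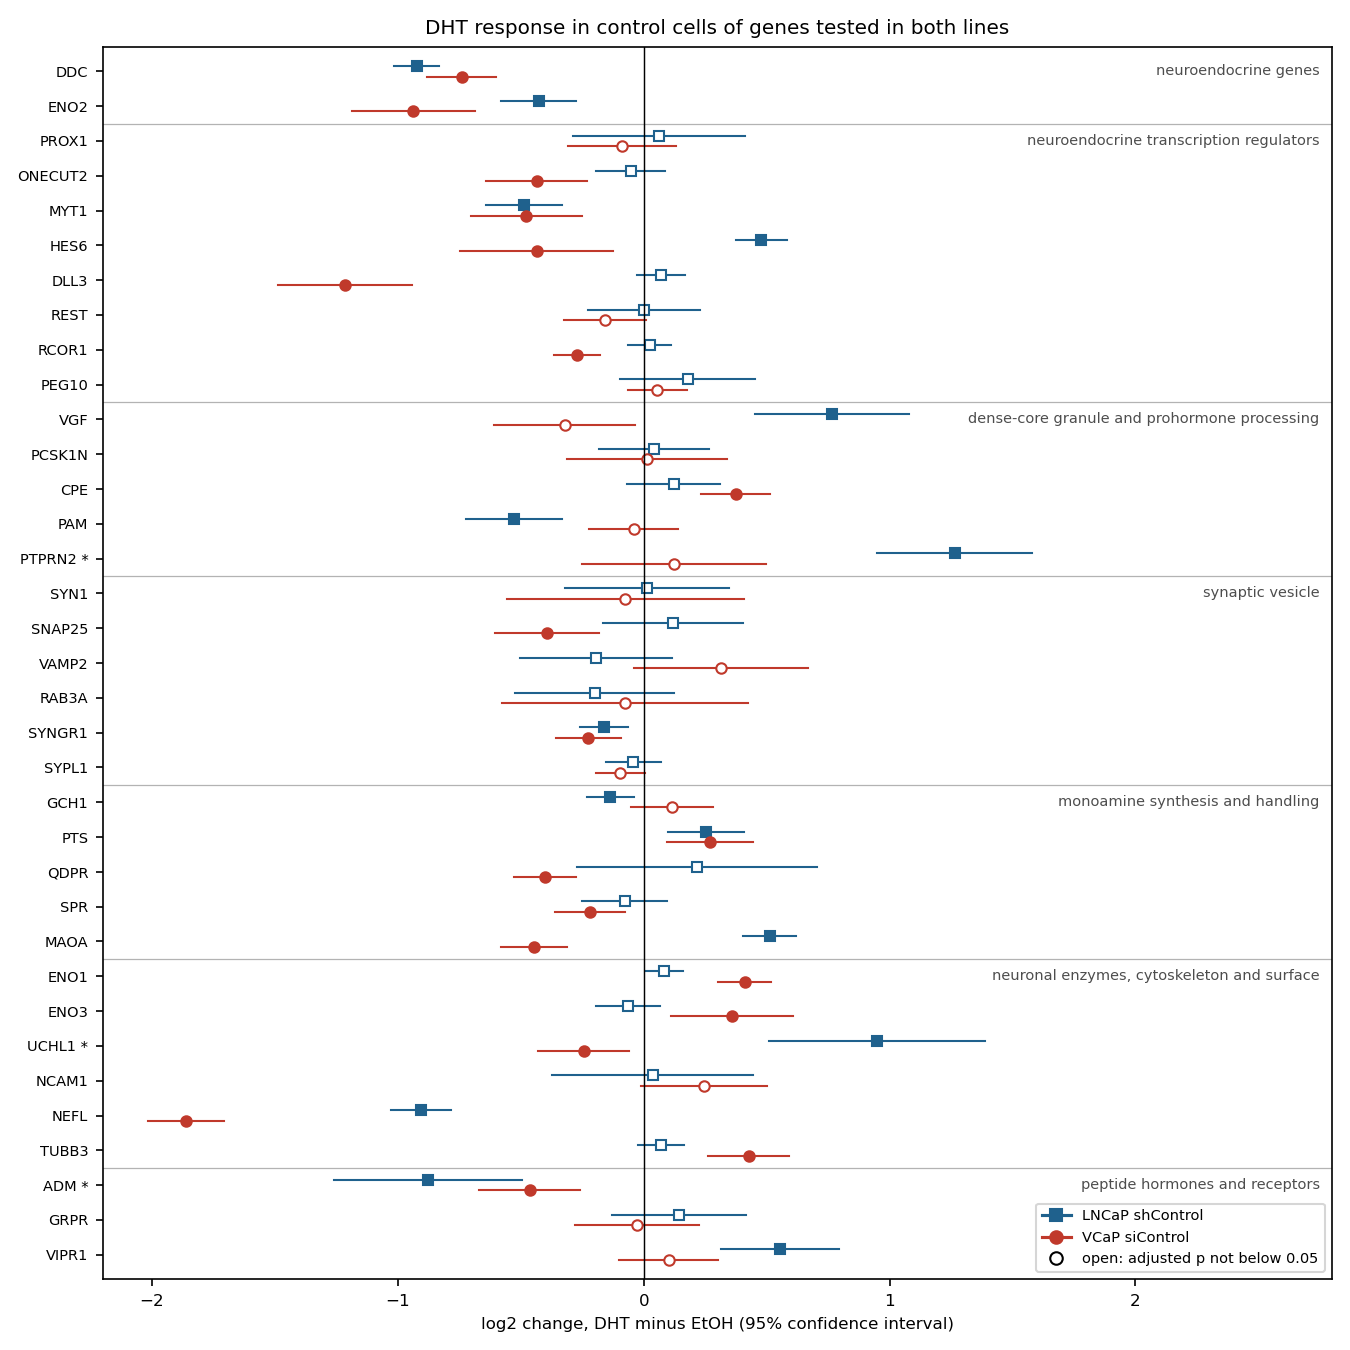
DHT response (log2 change, DHT minus EtOH, with 95% confidence interval) in LNCaP shControl cells (squares) and VCaP siControl cells (circles) of the genes tested in both lines, with filled symbols for an adjusted p below 0.05. DDC, ENO2, NEFL, MYT1 and SYNGR1 lie left of 0 in both lines, while HES6, MAOA and UCHL1 lie right of 0 in LNCaP and left of it in VCaP. An asterisk marks PTPRN2, UCHL1 and ADM, which in LNCaP lay above the array median on at most 1 of 3 control arrays of one treatment.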

How the data were processed

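Total RNA of 24 samples was hybridised to Affymetrix HG-U133 Plus 2.0 arrays. The values are the array intensities that the authors deposited, 1 per probe set and array, used as given. The sources used here do not say how scans became intensities. Each intensity became log2(intensity + 16), a computed scale on top of the deposited intensities. Of 54675 probe sets, 41097 named 1 gene, and the probe set with the highest mean over 24 arrays stood for each of 19777 genes. A gene was tested where 3 or more of a line's 12 arrays put it over their median (12850 in VCaP, 12809 in LNCaP, 12293 in both).

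Each line was fitted in limma 3.58.1 (R 4.3.3) with 4 groups of 3 arrays sharing 1 spread. Differences between lines came from a fit of all 24 arrays. P-values were two-sided and adjusted by Benjamini-Hochberg over all genes tested. On simulated data with known changes the test was checked before use. The number of arrays limits the precision. P-values reflect the spread between replicate arrays, shared over the groups of a fit and drawn by limma towards that of all genes.

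Named genes are the 7 neuroendocrine genes, ERG, ETV1, KLK3, FKBP5, REST, the 3 genes most like each neuroendocrine gene, and up to 2 risen and 2 fallen genes per role list and comparison with the smallest adjusted p. Such genes may also appear in further comparisons. Cell markers and list genes close to or below the array median are also named as limits. The 7 genes and all lists were chosen with earlier results of these data known. Role lists came from general knowledge. Promoter windows came from RefSeq, GRCh38.p14. The alternatives were other offsets, probe set choices, filters and scalings, variance settings, arrays or covariates in the fit, the replicate letter as a block, and each array left out in turn.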

Additional observations from a re-analysis of the deposited data

Results flagged for a closer look

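The DHT response of ENO2, the neuronal enolase, differed between the control cells of the 2 lines by a test of the difference itself. The response in LNCaP shControl cells minus that in VCaP siControl cells was 0.51 ± 0.14 log2 units (limma, adjusted p = 0.00699), from changes of -0.43 ± 0.07 in LNCaP and -0.94 ± 0.11 in VCaP. In each line all 3 control arrays with DHT lay below all 3 control arrays with EtOH. The difference passed the threshold under each alternative that was run, with adjusted p from 0.00139 to 0.0243.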

How the results depend on the processing

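The counts of neuroendocrine genes that changed were recomputed under each alternative, and most were the same. Without probe sets ending in _x_at or _s_at, 1 gene (DDC) changed with siERG under DHT and 1 under EtOH, by construction, since the probe set of INSM1 that carries its result is of this kind. With the GAPDH ratio as a covariate, 1 gene (DDC) changed with DHT in siERG cells, and the cause was not tested. This ratio fully separated these DHT and EtOH arrays, so the fit cannot cleanly tell the ratio from DHT. With it the standard errors of this change rose from 0.25 to 0.51 for CHGB and from 0.11 to 0.22 for ENO2. The rise of DDC with shETV1 under EtOH was the least stable call. The count was 0 with the average of a gene's probe sets, with no filter, with only the groups compared and with the GAPDH ratio, and 0 to 1 with an array left out. With probe sets averaged, the DDC change under EtOH turned to -0.040 ± 0.09 (adjusted p = 0.881), and the count under DHT was also 0 (0.10 ± 0.09, adjusted p = 0.601), where the average takes in the probe set of DDC that never passed the array median. For the line difference in DHT response the count was 2 with quantile normalization (DDC -0.27 ± 0.06, adjusted p = 0.0021), and 1 to 2 with an array left out. Of changes of single genes, 1196 values kept their side of the threshold, 12 newly passed, 16 no longer passed and 1 that had passed turned its direction. Turns of direction of changes that passed neither way are within the 1196. CHGA with siERG under EtOH, for example, ran from -0.63 to 0.11. SCG2 with siERG under EtOH passed with an offset of 64 (adjusted p = 0.0492), a filter at the 60th percentile (0.0427) and all 24 arrays in 1 fit (0.0134), and SYP with siERG under DHT passed with only the groups compared (0.0140). CHGB with DHT passed in siControl cells with the ACTB ratio (-0.60, adjusted p = 0.0315) and did not pass in siERG cells with no filter (0.0546).

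With replicate letters as a replicate block, the same genes changed in each comparison, with 2 for siERG under each treatment, while 943 genes in all changed with siERG under DHT against 1163 without it, and 421 against 663 with shETV1 under DHT. Same-letter arrays did not deviate together. Their correlations were -0.13 to 0.11 in VCaP and -0.22 to 0.12 in LNCaP, with 2 and 1 of 18 pairs over 0.1. Pairs of different letters reached 0.14 in VCaP and 0.24 in LNCaP. The labels name no batch, and whether a letter stands for a shared day was not tested.

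Scaling moved the median of all genes by under 0.1 log2 units but shifted the split of all genes that changed. The share that rose was 25.1% with arrays centred against 47.6% as given for siERG under EtOH, 58.3% against 44.2% for DHT in siERG cells, and 33.6% with quantile normalization and 31.5% with centring against 51.7% for shETV1 under DHT. For the line difference in DHT response it was 44.5% with quantile normalization against 55.1%. Over all genes, 1451 changed with siERG under EtOH against 284 with the GAPDH ratio in the fit, 1163 against 276 under DHT, and 5834 against 2526 with DHT in siERG cells. Signal close to background limits SYP, and 5 of the 7 genes could not be tested in LNCaP.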
